A study of Mus musculus with 22 samples.

Results

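The 50 genes described here encode the machinery of mitosis, from the cyclins that start it to the proteins that split the cell. They were matched by symbol from a list, with no threshold on how they differed between groups. The list was chosen with earlier results of these data known, so shares of the 50 beside those of all genes are descriptions and not tests. All 50 of 50 were found in each of the 3 deposited tables of normalized counts, and all 50 had a table mean of at least 10 there. They make up 50 of the 11701, 13364 and 12386 genes tested in experiment 1, experiment 2 and the culture experiment, out of 21880, 26097 and 25676 genes listed. The member with the lowest table mean was Ttk in experiment 1 (13.6) and in culture (10.9), and Kif2c in experiment 2 (18.5).

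RNA was sequenced from 22 libraries of mouse spleen immature B cells, sorted as B220+CD93+, which are recent arrivals from the bone marrow. In experiment 1, cells came from untreated Tcrd-GDL mice (3 libraries) or from Tcrd-GDL mice given diphtheria toxin (3 libraries). Experiment 2 held untreated Tcrd-GDL mice (5 libraries), toxin-treated Tcrd-GDL mice (2 libraries) and toxin-treated Tcrd-H2BeGFP mice (3 libraries), here called the toxin control. In the culture experiment, cells of untreated Tcrd-H2BeGFP mice were cultured alone (3 libraries) or with γδ T cells (3 libraries). Each treated mouse received 15 ng of toxin per g intraperitoneally on 2 occasions separated by 48 h, and was analysed on day 8 counted from the first. Tcrd-GDL mice carry a toxin receptor in γδ T cells, so the toxin removes those cells, and the treated Tcrd-GDL groups are called depleted. The labels do not say whether Tcrd-H2BeGFP mice carry a toxin receptor. They give no age or sex, do not say whether a library is 1 mouse or a pool, and do not give the length of the culture. The 3 groups of experiment 2 differ in treatment, in strain or in both, so strain and toxin cannot be told apart between the toxin control and the untreated group. Strain and depletion cannot be told apart between the depleted group and the toxin control. Toxin and depletion cannot be told apart between depleted and untreated mice in either experiment, and experiment 1 had no toxin control. The p-values below measure the spread between libraries, which may be in part technical.

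Mitotic genes are silent in resting cells and are switched on late in the cell cycle. The DREAM complex holds them off in resting cells through a promoter element called the CHR, and the MuvB core with B-Myb and FoxM1 activates them from the same element, while NF-Y binds CCAAT boxes beside it. Large precursors in the bone marrow divide, then leave the cycle before they rearrange light chain genes with Rag1 and Rag2, and immature B cells are mostly resting. In a sorted population that is mostly resting, mitotic transcripts can come from a small dividing share. In bulk RNA, fewer dividing cells and less mitotic RNA per cell cannot be told apart.

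Promoter windows of 300 bases (250 before the start and 50 after it, RefSeq on GRCm38.p6) were found for 42 of the 50 genes, giving 44 windows. Foxm1, Kif20a, Smc4, Aurkb, Pbk, Ccna2, Dlgap5 and Tpx2 had no entry. The letters searched, on both strands, were TTTGAA and TTTAAA for the CHR, CCAAT for the CCAAT box, and TTTCCCGC and TTTGGCGC for E2F. A CHR stood in 38 of 44 member windows (86.4%), in 27.6% of all 32851 windows of that length and in 19.2% of the 10131 windows of genes tested in all 3 tables. CCAAT stood in 34 of 44 (77.3%), against 37.4% and 38.3%. At least 2 CCAAT boxes stood in 54.5% of member windows, against 11.7% and 14.9%. Both motifs were present in 72.7%, against 10.7% and 7.60%. The E2F letters were found in 2 windows (4.55%, against 1.56% and 3.10%), those of Kif15 and Ncapg. Neighbouring matches of different motifs may share a letter, and TTTAAA reads the same on both strands. These counts describe letters in a window and not bound sites.

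The 150 bases before the start are shown for the members with the lowest adjusted p in the comparisons below (Mki67, Top2a and Kif11), for Cdk1, whose kinase starts mitosis, and for Cdc20 and Cenpa, whose log2 fold changes in the depleted libraries of experiment 2 were above 0. They are written 5′ to 3′ on the gene's strand. Capitals mark the CHR (TTTGAA or TTTAAA, or TTCAAA on the other strand) and the CCAAT box (CCAAT, or ATTGG on the other strand).
Mki67 (chr7:135716380-135716529, minus strand): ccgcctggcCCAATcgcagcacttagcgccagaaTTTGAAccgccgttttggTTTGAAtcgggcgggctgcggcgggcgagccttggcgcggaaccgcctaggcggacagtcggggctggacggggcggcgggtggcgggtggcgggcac
Top2a (chr11:99024190-99024339, minus strand): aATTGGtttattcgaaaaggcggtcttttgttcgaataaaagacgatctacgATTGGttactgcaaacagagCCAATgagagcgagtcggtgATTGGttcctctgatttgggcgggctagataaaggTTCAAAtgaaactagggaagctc
Kif11 (chr19:37376232-37376381, plus strand): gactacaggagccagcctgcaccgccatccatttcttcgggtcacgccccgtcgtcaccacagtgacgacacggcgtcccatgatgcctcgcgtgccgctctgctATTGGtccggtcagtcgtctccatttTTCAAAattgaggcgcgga
Cdk1 (chr10:69352913-69353062, minus strand): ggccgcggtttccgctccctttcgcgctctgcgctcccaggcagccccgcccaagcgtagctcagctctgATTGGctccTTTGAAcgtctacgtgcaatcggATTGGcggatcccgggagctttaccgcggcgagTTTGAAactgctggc
Cdc20 (chr4:118437344-118437493, minus strand): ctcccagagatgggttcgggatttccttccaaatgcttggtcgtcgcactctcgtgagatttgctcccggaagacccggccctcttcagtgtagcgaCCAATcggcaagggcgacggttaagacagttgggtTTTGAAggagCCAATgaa
Cenpa (chr5:30666736-30666885, plus strand): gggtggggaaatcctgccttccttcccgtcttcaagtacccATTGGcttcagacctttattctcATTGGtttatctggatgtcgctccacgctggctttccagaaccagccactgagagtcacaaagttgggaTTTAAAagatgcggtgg
All 6 stretches hold at least 1 CHR and at least 1 CCAAT box. In Top2a, Kif11, Cdc20, Cenpa and Cdk1 the last CHR shown begins 23, 19, 18, 17 and 15 bases before the start, with a CCAAT box upstream of it. In Mki67 both CHR matches lie farther away, at 116 and 98 bases. Cdc20 and Cenpa thus share these letters with Mki67, Top2a and Kif11, but these 6 stretches do not stand for all members. Aurka, Bub1b, Cdca3, Ndc80 and Anln also had log2 fold changes above 0 against untreated mice, and hold no CHR in these 150 bases. Cenpf and Hmmr, which fell against the toxin control, hold none there either. All of these genes have a CHR within the 50 bases after the start.

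Library sizes, as whole reads recovered from the deposited values, ran from 9794413 to 20343954 in experiment 1, from 22022330 to 36840455 in experiment 2 and from 17505909 to 28729574 in culture. The 50 genes together had 2869 to 7548, 5433 to 14286 and 3477 to 6131 reads per library. A few libraries stood apart. In depleted replicate 1 of experiment 1, the transcript Gm23935 took 28.7% of reads, against 16.1% to 20.4% in the other 5. The same library had Xist at 3.06 and the Y-linked Ddx3y at 569, while the other 5 had Xist from 9304 to 10639, and depleted replicate 2 had Ddx3y at 40.0. In culture, replicate 3 of both groups had low Xist (228 and 265) and high Ddx3y (817 and 927). B cell genes were abundant in every group, with Cd79a, a subunit of the B cell receptor, from 7179 to 10704 in experiment 1, from 21349 to 26435 in experiment 2 and from 9566 to 13443 in culture.

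Per kilobase of exon, the untreated libraries of experiment 2 had the most transcript from Cks2, a subunit of cyclin-dependent kinases (346 normalized counts per kb), and Smc4, a condensin subunit (307). Cenpa, the histone that marks centromeres, followed at 104, and Smc2, the partner of Smc4, at 77.4. Kif2c, a kinesin that takes microtubules apart, was lowest at 2.93, and Cenpf, a large kinetochore protein, stood at 3.30. Mki67, a coat protein of mitotic chromosomes, stood at 17.6 and Top2a, which untangles DNA strands, at 39.6. Rag1, the recombinase of antigen receptor genes, had 28.5 per kb in the same libraries. The 50 genes therefore spanned a wide range of level, and a few of them accounted for much of the transcript.

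The mean level of the 50 genes, as the mean of log2(normalized count + 1) in each library, separated the groups in some comparisons. In experiment 1 it was 5.96, 5.96 and 6.08 in the untreated libraries (6.00 ± 0.068, SD, n = 3) and 5.98, 4.98 and 5.35 in the depleted ones (5.44 ± 0.51, SD, n = 3). Depleted replicate 1 lay among the untreated libraries, and replicates 2 and 3 lay below all of them. In experiment 2 it was 6.31, 6.10, 6.16, 6.39 and 6.77 in untreated replicates 4 to 8 (6.35 ± 0.26, SD, n = 5). It was 5.67 and 6.05 in the depleted libraries (5.86 ± 0.27, SD, n = 2) and 6.67, 6.63 and 7.07 in the toxin control (6.79 ± 0.25, SD, n = 3). Both depleted libraries lay below every other library of experiment 2. The toxin control overlapped the untreated group only through untreated replicate 8, which had the highest level of its group. In culture it was 5.87, 6.14 and 5.80 in cells kept alone (5.94 ± 0.18, SD, n = 3) and 5.64, 5.87 and 5.58 with γδ T cells (5.69 ± 0.15, SD, n = 3), and these groups overlapped. Levels are comparable only within an experiment, because each table was scaled on its own.

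**Figure D1:**
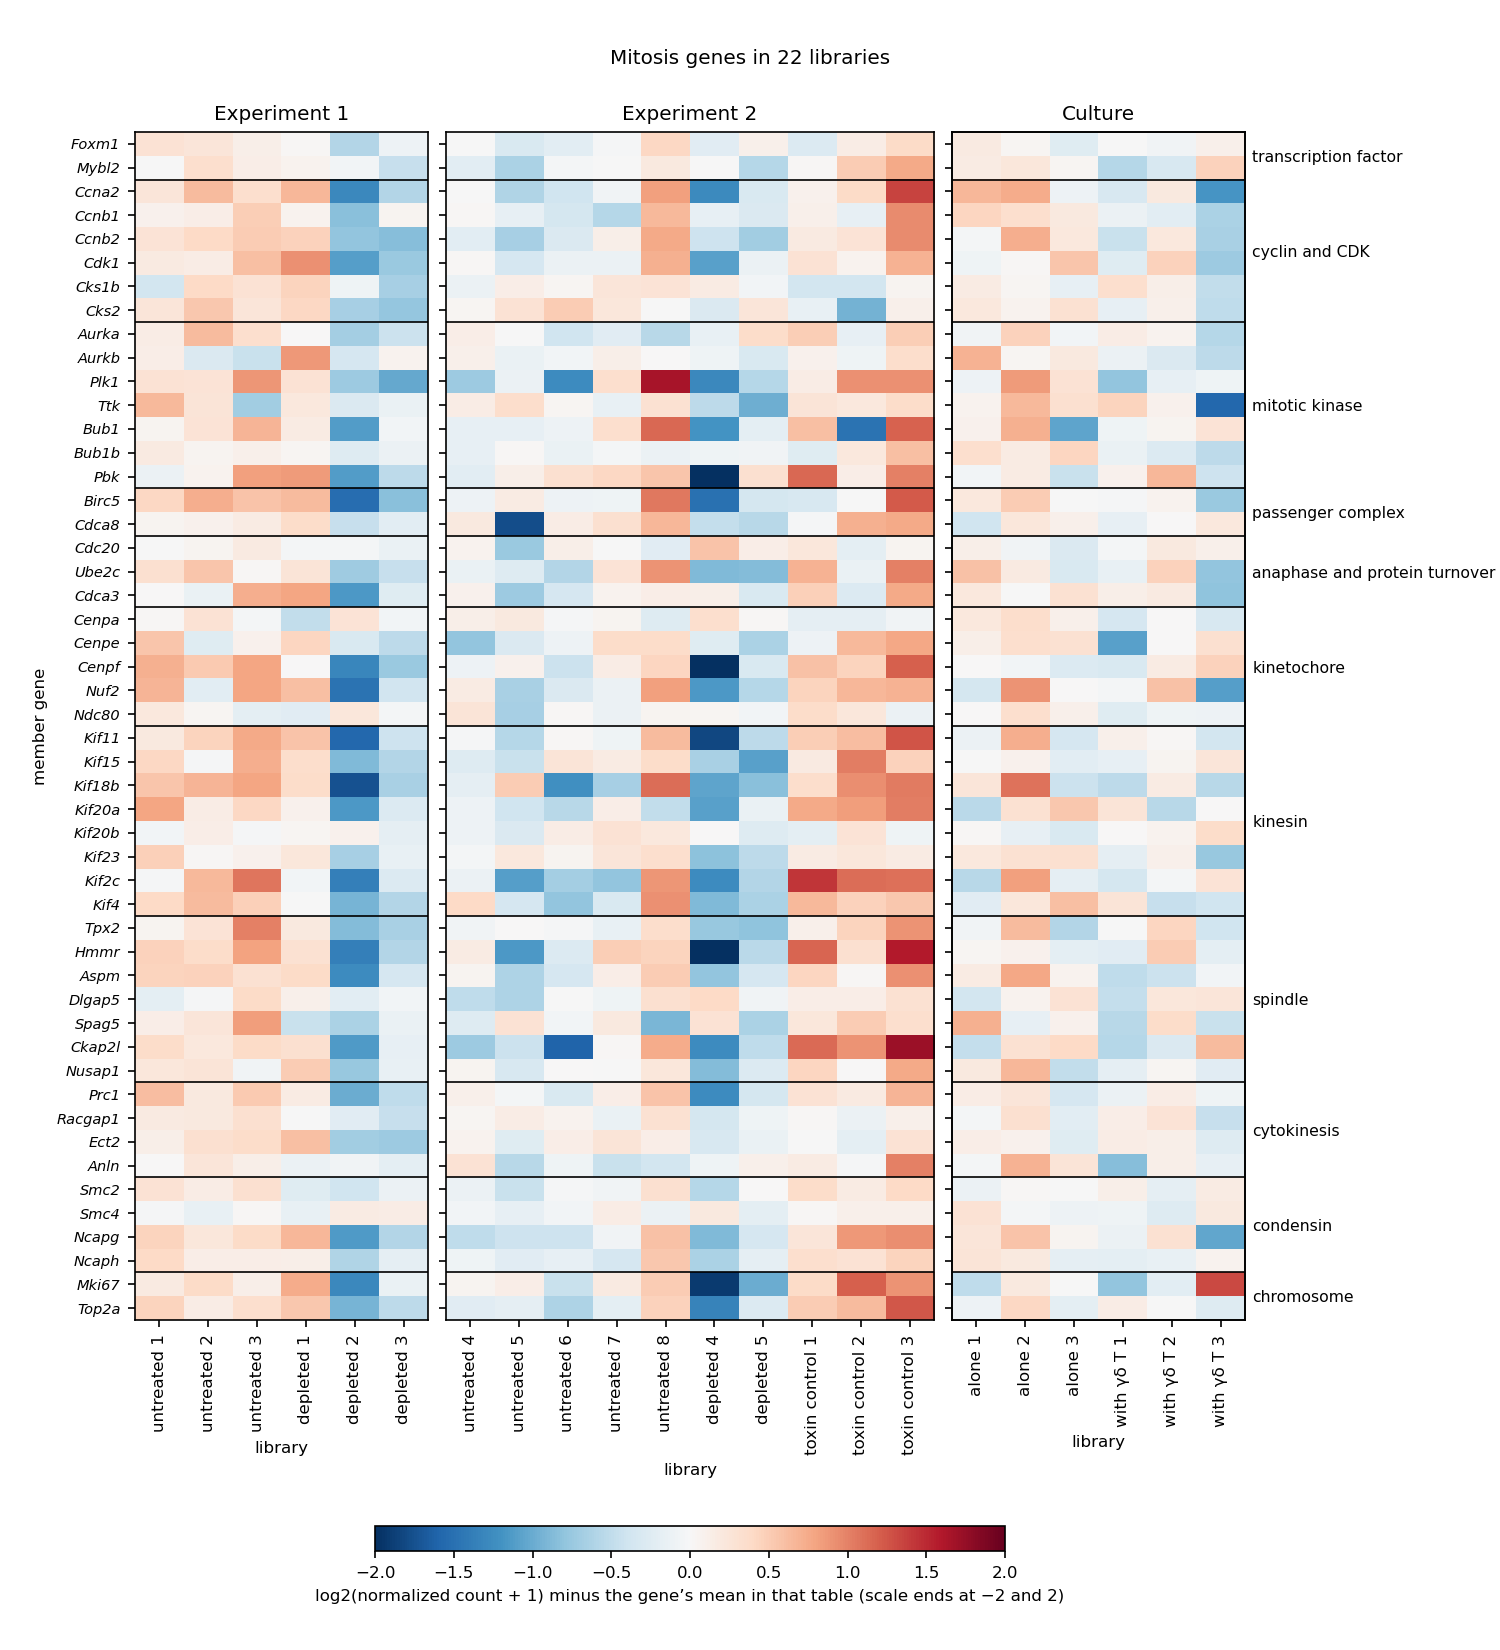
Heat map of the 50 genes (rows, grouped by role) in 22 libraries (columns, by experiment and group). Colour gives log2(normalized count + 1) minus the gene's mean in that table, with the scale ending at -2 and 2. Depleted replicates 2 of experiment 1 and 4 of experiment 2 are low across most roles, while Cenpa, Smc4, Kif20b and Cdc20 stay pale.

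Depletion in experiment 2 was set against the toxin control first, since both groups received toxin. The depleted mice were Tcrd-GDL and the toxin control Tcrd-H2BeGFP, so depletion and strain cannot be told apart here. In this comparison 17 of 50 genes (34.0%) fell and 0 rose in limma's test with an adjusted p under 0.05, while 4.49% of all 13364 genes tested fell and 4.58% rose. At an unadjusted p under 0.05, 30 of 50 were lower and 1 higher, against 13.8% and 13.1% of all genes. The genes that fell were the kinesins Kif11, Kif15, Kif20a, Kif23 and Kif2c, the spindle proteins Tpx2, Hmmr, Ckap2l and Nusap1, and the kinetochore proteins Cenpf and Nuf2. Prc1, Ncapg, Ccna2, Ube2c, Mki67 and Top2a fell with them. The log2 fold change was below 0 in 46 of the 50 (50.2% of all genes) and above 0 in 4 (49.8%), with a median of -0.96, beside a median of -0.0019 over all genes tested.

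The chromosome proteins had the lowest adjusted p. Mki67 was at 42.8 and 81.6 normalized counts in the depleted libraries, at 213, 373 and 304 in the toxin control and at 169, 178, 119.7, 184 and 233 in the untreated ones. Both depleted libraries were below all other libraries, and the log2 fold change against the toxin control was -2.27 ± 0.30 (SE; limma adjusted p = 0.000693). Top2a was at 152 and 317 in the depleted libraries, at 544, 594 and 908 in the toxin control and at 329, 338, 251, 334 and 530.4 in the untreated ones. Its depleted libraries lay below the toxin control, with a log2 fold change of -1.59 ± 0.30 (limma adjusted p = 0.00676), but replicate 5 lay within the untreated range.

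The kinesins are motor proteins that slide microtubules, carry chromosomes or build the midbody, and 5 of 8 fell against the toxin control. Kif11, which pushes spindle poles apart, was at 27.4 and 68.8 in the depleted libraries, at 141, 154 and 240.3 in the toxin control and at 97.9, 66.6, 101, 93.5 and 155 in the untreated group. Its log2 fold change against the toxin control was -1.97 ± 0.37 (limma adjusted p = 0.00702), and depleted replicate 4 was far below replicate 5. Kif20a, a motor of the central spindle, was at 23.0 and 45.5 (depleted), 85.1, 90.1 and 103 (toxin control) and 46.4, 37.5, 33.7, 54.8 and 35.3 (untreated), with a log2 fold change of -1.48 ± 0.34 (adjusted p = 0.0176). All 3 toxin control libraries of Kif20a lay above all 7 others. Kif15, which supports Kif11 in spindle assembly, was at 41.7 and 30.3 (depleted), 74.6, 135 and 90.9 (toxin control) and 54.7, 47.9, 78.6, 73.5 and 85.2 (untreated), with a log2 fold change of -1.43 ± 0.33 (adjusted p = 0.0178). Kif23, a motor of the midbody, was at 74.6 and 92.1 (depleted), 149, 155 and 148 (toxin control) and 129, 153, 138, 156 and 168 (untreated), with a log2 fold change of -0.85 ± 0.20 (adjusted p = 0.0193). Kif15 and Kif23 were lower in both depleted libraries than in any other library of the experiment. Kif2c fell as well (-2.14, adjusted p = 0.0353), Kif18b and Kif4 had log2 fold changes of -1.72 and -1.31 that did not pass, and Kif20b stood at -0.11.

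Among spindle proteins, Tpx2, which activates Aurora A on the spindle, was at 47.1 and 45.5 in the depleted libraries, at 86.3, 109.6 and 150.1 in the toxin control and at 76.3, 80.2, 78.6, 72.1 and 102 in the untreated ones. The depleted libraries lay below all others, with a log2 fold change of -1.26 ± 0.27 against the toxin control (limma adjusted p = 0.0136). Hmmr, which helps to orient the spindle, was at 4.39 and 16.3 (depleted), 56.0, 30.7 and 74.7 (toxin control) and 27.4, 10.4, 20.0, 34.7 and 33.6 (untreated), with a log2 fold change of -2.42 ± 0.59 (adjusted p = 0.0216). Both depleted libraries of Hmmr lay below the toxin control, and replicate 5 lay above untreated replicate 5. Ckap2l and Nusap1 fell (-2.13 and -0.97, adjusted p = 0.04 and 0.0322). Aspm (-1.02), Spag5 (-0.53) and Dlgap5 (-0.02) did not pass.

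At the kinetochore, where chromosomes meet microtubules, Cenpf was at 11 and 39.7 in the depleted libraries, at 74.6, 67.6 and 114 in the toxin control and at 45.6, 52.1, 36.2, 54.8 and 66.3 in the untreated ones. It fell against the toxin control by a log2 fold change of -1.93 ± 0.44 (limma adjusted p = 0.0162), with depleted replicate 5 inside the untreated range. Nuf2, a subunit of the NDC80 complex, fell too (-1.47, adjusted p = 0.025). Its partner Ndc80 stood at -0.17 and did not pass. Cenpa was the exception in direction, at 752 and 609.9 in the depleted libraries against 527, 527 and 567 in the toxin control. Its groups did not overlap, but its log2 fold change of 0.33 ± 0.14 did not pass (adjusted p = 0.155).

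The cyclins and kinases drive entry into mitosis. Of 6 cyclin and CDK genes 1 fell, and of 7 mitotic kinases 0 passed. Cdk1, the kinase that starts mitosis, was at 27.4 and 54.8 in the depleted libraries, at 73.4, 62.5 and 97.3 in the toxin control and at 60.5, 46.9, 54.9, 54.8 and 98.2 in the untreated ones. Its depleted libraries lay below the toxin control without passing (-0.96 ± 0.36, limma adjusted p = 0.103). Ccna2, cyclin A, fell (-1.39 ± 0.42, adjusted p = 0.0467). Ccnb1, cyclin B, was at 57.0 and 52.5 (depleted), 68.8, 57.4 and 125 (toxin control) and 65.5, 57.3, 49.9, 42.7 and 101 (untreated), and its depleted libraries lay below the toxin control by a small margin (-0.52, adjusted p = 0.385). The CDK subunits Cks1b and Cks2 had log2 fold changes above 0 (0.28 and 0.31) that did not pass.

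Plk1, a kinase of spindle poles and kinetochores, was at 11 and 18.7 in the depleted libraries, at 31.5, 54.3 and 54.3 in the toxin control and at 16.6, 26.0, 11.2, 36.1 and 90.4 in the untreated ones. The depleted libraries were below the toxin control, yet the untreated group spanned nearly the whole range of both, and -1.59 ± 0.64 did not pass (limma adjusted p = 0.12). Aurkb, the kinase of the chromosomal passenger complex, was at 143 and 122 (depleted), 161, 142 and 195 (toxin control) and 163, 138, 146, 164 and 152 (untreated), and its groups overlapped (-0.31, adjusted p = 0.32). Birc5 and Cdca8, subunits of the same complex, had log2 fold changes of -1.23 and -0.99 that did not pass (adjusted p = 0.111 and 0.253). Pbk, a mitotic kinase, had the lowest log2 fold change of the 50 (-2.50) but did not pass (adjusted p = 0.0525). It was at 1.1 and 35.0 in the depleted libraries and at 62.9, 30.7 and 57.1 in the toxin control, so that 1 depleted library was the lowest of all and the other lay within the toxin control. Bub1, Bub1b and Ttk, kinases of the spindle checkpoint, stood at -0.79, -0.27 and -1.03 and did not pass.

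Among the remaining roles, the ubiquitin enzyme Ube2c, which acts with the anaphase-promoting complex, fell (-1.39, adjusted p = 0.0499). Cdc20, the activator of that complex, stood at 0.32, above 0, and did not pass. The cytokinesis gene Prc1, which bundles microtubules in the central spindle, fell (-1.19, adjusted p = 0.0216), and Racgap1, Ect2 and Anln did not pass (-0.22, -0.25 and -0.38). Of the condensin subunits, Ncapg fell (-1.29, adjusted p = 0.0299). Ncaph, Smc2 and Smc4 stood at -0.76, -0.59 and -0.08. The transcription factors Foxm1 and Mybl2 (B-Myb) stood at -0.15 and -0.71 and did not pass.

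In 31 of the 50 genes (62.0%) both depleted libraries lay below all 3 toxin control libraries, against 20.9% of all genes, and in 1 gene, Cenpa, both lay above (21.1% of all genes). The count of genes that fell depended on single libraries: it was 1 (Mki67, -2.27 with all libraries and -1.81 here) without depleted replicate 4, 5 without toxin control replicate 3 and 6 without toxin control replicate 2. Over all genes the count that fell went from 600 to 16, 237 and 110 under the same settings. For the 50 genes the count was 11 when the untreated libraries were left out of the fit, beside 201 over all genes. Ccna2, Ube2c, Kif20a, Ckap2l, Nusap1, Prc1 and Ncapg overlap a gene on the other strand (Exosc9, Tnnc2, Cdc23, Gm14024, Oip5, Rccd1 and Lcorl). Whether the counts used strand is unknown here, so reads of such pairs may be mixed.

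**Figure D2:**
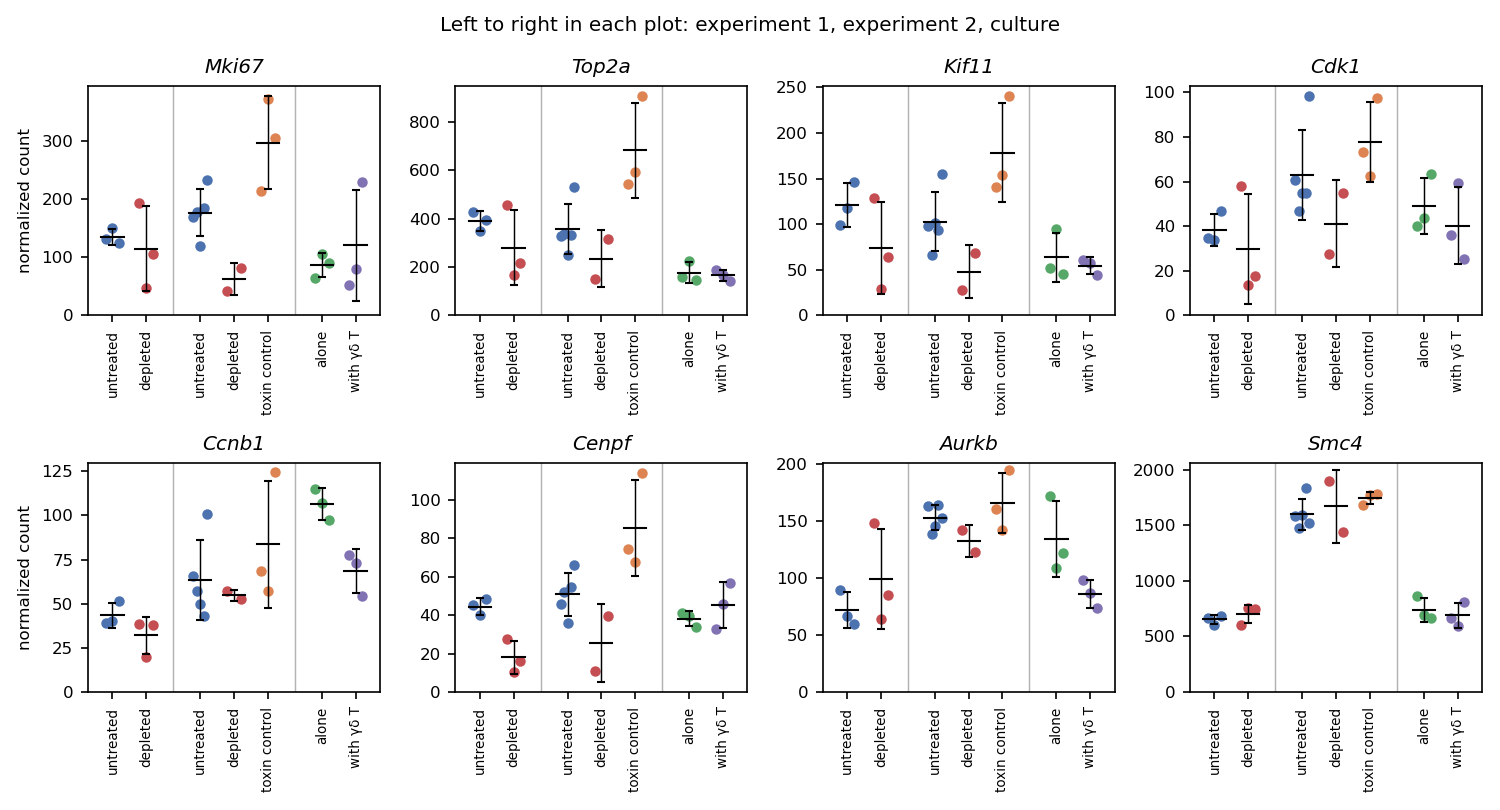
Normalized counts of 8 of the genes in every library (points), with the group mean (line) and SD (bar), each group at its own position. The vertical grey lines divide experiment 1, experiment 2 and culture, whose levels are not on 1 scale. Mki67 is at 42.8 and 81.6 in the depleted libraries of experiment 2 and at 213 to 373 in the toxin control, while Smc4 spans 1439 to 1898 across that experiment.

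Depleted and untreated Tcrd-GDL mice of experiment 2 share a strain and differ in toxin, so toxin and depletion cannot be told apart here. Here 1 of 50 genes (2.0%) fell, Mki67, with a log2 fold change of -1.53 ± 0.28 (limma adjusted p = 0.0288), while 0.172% of all 13364 genes fell and 0.127% rose. The log2 fold change was below 0 in 41 of the 50 (50.5% of all genes) and above 0 in 9 (49.5%), with a median of -0.47, beside -0.0024 over all genes. At an unadjusted p under 0.05, 15 of 50 were lower (30.0%) and 0 higher, against 5.42% and 4.38% of all genes. This comparison shares its depleted libraries with the one above and its untreated libraries with the one below.

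After Mki67, the smallest p belonged to Kif23 (-0.83 ± 0.18, adjusted p = 0.0716), Kif11 (-1.17 ± 0.34, adjusted p = 0.199) and Prc1 (-0.90 ± 0.26, adjusted p = 0.201), and none of these passed. Prc1 was at 52.6 and 100.3 in the depleted libraries and at 138, 124, 104, 140.3 and 190.3 in the untreated ones. Both depleted libraries of Prc1 were the lowest of the 7. The 9 genes with both depleted libraries below all 5 untreated ones (18%, against 6.56% of all genes) were Ttk, Bub1, Birc5, Ube2c, Kif15, Kif23, Tpx2, Prc1 and Mki67. Cdc20 was the only gene of the 50 with both above (2.0%, against 5.78% of all genes), at 141 and 105 against 99.5, 56.2, 104, 94.8 and 80.9, and its log2 fold change of 0.51 ± 0.26 did not pass (adjusted p = 0.541).

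By role, all 8 kinesins and all 6 cyclin and CDK genes had log2 fold changes below 0 in this comparison, with medians of -0.78 and -0.37. Those above 0 were Aurka (0.32), Bub1b (0.01), Cdc20, Cdca3 (0.06), Cenpa (0.16), Ndc80 (0.08), Dlgap5 (0.35), Anln (0.24) and Smc4 (0.05). The call for Mki67 was lost without depleted replicate 4 (-1.07) or without untreated replicate 4, 5 or 7, and not without untreated replicate 6 or 8. Without depleted replicate 5, which leaves 1 depleted library, the log2 fold changes of Cenpf, Kif11 and Top2a were -2.09, -1.82 and -1.18. The call for Mki67 was also lost when the toxin control was left out of the fit, and DESeq2 on the recovered reads called Kif23 beside it.

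The toxin control was also set against the untreated group, where strain and toxin differ together. In this comparison 6 of 50 genes (12%) rose and 0 fell, while 7.32% of all 13364 genes rose and 8.34% fell. The log2 fold change was above 0 in 43 of the 50 (50.1% of all genes), with a median of 0.48, beside 0.00083 over all genes. Groups did not overlap in 5 of 50 (10%), all higher in the toxin control, which is near the 11.6% of all genes that were higher without overlap.

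The genes that rose were Kif20a (1.16 ± 0.27, limma adjusted p = 0.0125), Top2a (0.94 ± 0.24, adjusted p = 0.0173), Ckap2l (1.64 ± 0.49, adjusted p = 0.0327), Kif2c (1.58 ± 0.47, adjusted p = 0.0341), Ncapg and Mki67. Ckap2l, a protein of spindle microtubules, was at 38.5, 32.8 and 58.5 in the toxin control and at 9.95, 12.5, 4.99, 17.4 and 29.3 in the untreated libraries. Kif2c was at 40.8, 32.8 and 32.4 (toxin control) and 13.3, 6.25, 8.73, 8.01 and 27.6 (untreated). In both genes untreated replicate 8 was the untreated library closest to the toxin control. Ncapg, a regulatory subunit of condensin, was at 94.4, 146 and 154 (toxin control) and 55.6, 59.4, 59.9, 76.1 and 121 (untreated) (0.85 ± 0.27, adjusted p = 0.0449). Mki67 had a log2 fold change of 0.74 ± 0.24 (adjusted p = 0.0476). Ncapg and Mki67 overlapped between the groups, through untreated replicate 8. Of the 7 genes below 0, Cks2 was lowest (-0.54 ± 0.21, adjusted p = 0.0918) and did not pass.

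No gene of the 50 passed without toxin control replicate 2 or without replicate 3. The count was 12 without untreated replicate 8, 3 without untreated replicate 7 and 2 without untreated replicate 4, 5 or 6. Calls over all genes moved too, from 978 that rose to 76 without toxin control replicate 2 and 325 without replicate 3. They were 1412 without untreated replicate 8, 555 without replicate 7 and 685, 602 and 456 without replicates 4, 5 and 6. Cd93, a marker of the sort, was higher in the toxin control (1757 to 2290) than in the untreated group (905 to 1409; 0.81, adjusted p = 0.00232) and the depleted group (1094 to 1187). Of the 13 T cell genes tested, 4 rose in the toxin control against untreated (Lat, Tcf7, Cd3e and Cd3g), or 30.8% against 7.32% of all genes. In depleted libraries against the toxin control 3 fell (Cd5, Tcf7 and Lat), or 23.1% against 4.49% of all genes. All 13 had log2 fold changes below 0 there, with a median of -1.42, beside -0.96 for the 50 mitosis genes. In 11 of the 13 (84.6%, against 20.9% of all genes) both depleted libraries lay below the toxin control. The summed level of the T cell list was mostly that of Cd2, which hides the other genes of the list. It was 5883 to 6839 in the untreated, 5936 to 6223 in the depleted and 6850 to 7609 in the toxin control libraries, with no listed gene at 0. Cd3e was at 57.2, 29.2, 33.7, 41.4 and 167 in untreated replicates 4 to 8, at 34.0 to 81.6 in the depleted and at 112 to 185 in the toxin control libraries, so that untreated replicate 8 lay within the toxin control range of Cd3e. Germinal centre genes, a list of B cells that divide after activation, summed to 1645 to 2109, 1512 to 1737 and 1998 to 2231 in untreated, depleted and toxin control libraries. Fas and Basp1 of that list fell in depleted libraries against the toxin control (-1.63 and -2.35, limma adjusted p = 0.00548 and 0.0116). They were 33.3% of the 6 tested, against 4.49% of all genes. In the toxin control against untreated 1 of the 6 rose (16.7%, against 7.32% of all genes). Pro-B and pre-B genes summed to 1847 to 2405, 1346 to 1882 and 2575 to 2834. Plasmablast genes summed to 6734 to 9274, 6653 to 7631 and 7666 to 15575, and none of the 5 tested passed in experiment 2. The myeloid gene Lyz2 fell in depleted libraries against the toxin control (-1.80, limma adjusted p = 0.0216). It was 1 of 5 tested (20.0%, against 4.49% of all genes). The myeloid list summed to 547 to 1357, 403 to 721 and 921 to 1400 in untreated, depleted and toxin control libraries. Elane was at 0 in the first and in the second, where Prtn3 was at 0 too. Erythroblast genes summed to 1105 to 2698, 584 to 4659 and 574 to 1823, with Klf1 and Car1 at 0 in the depleted libraries. The part of these other cells in the mitotic genes was not tested.

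**Figure D3:**
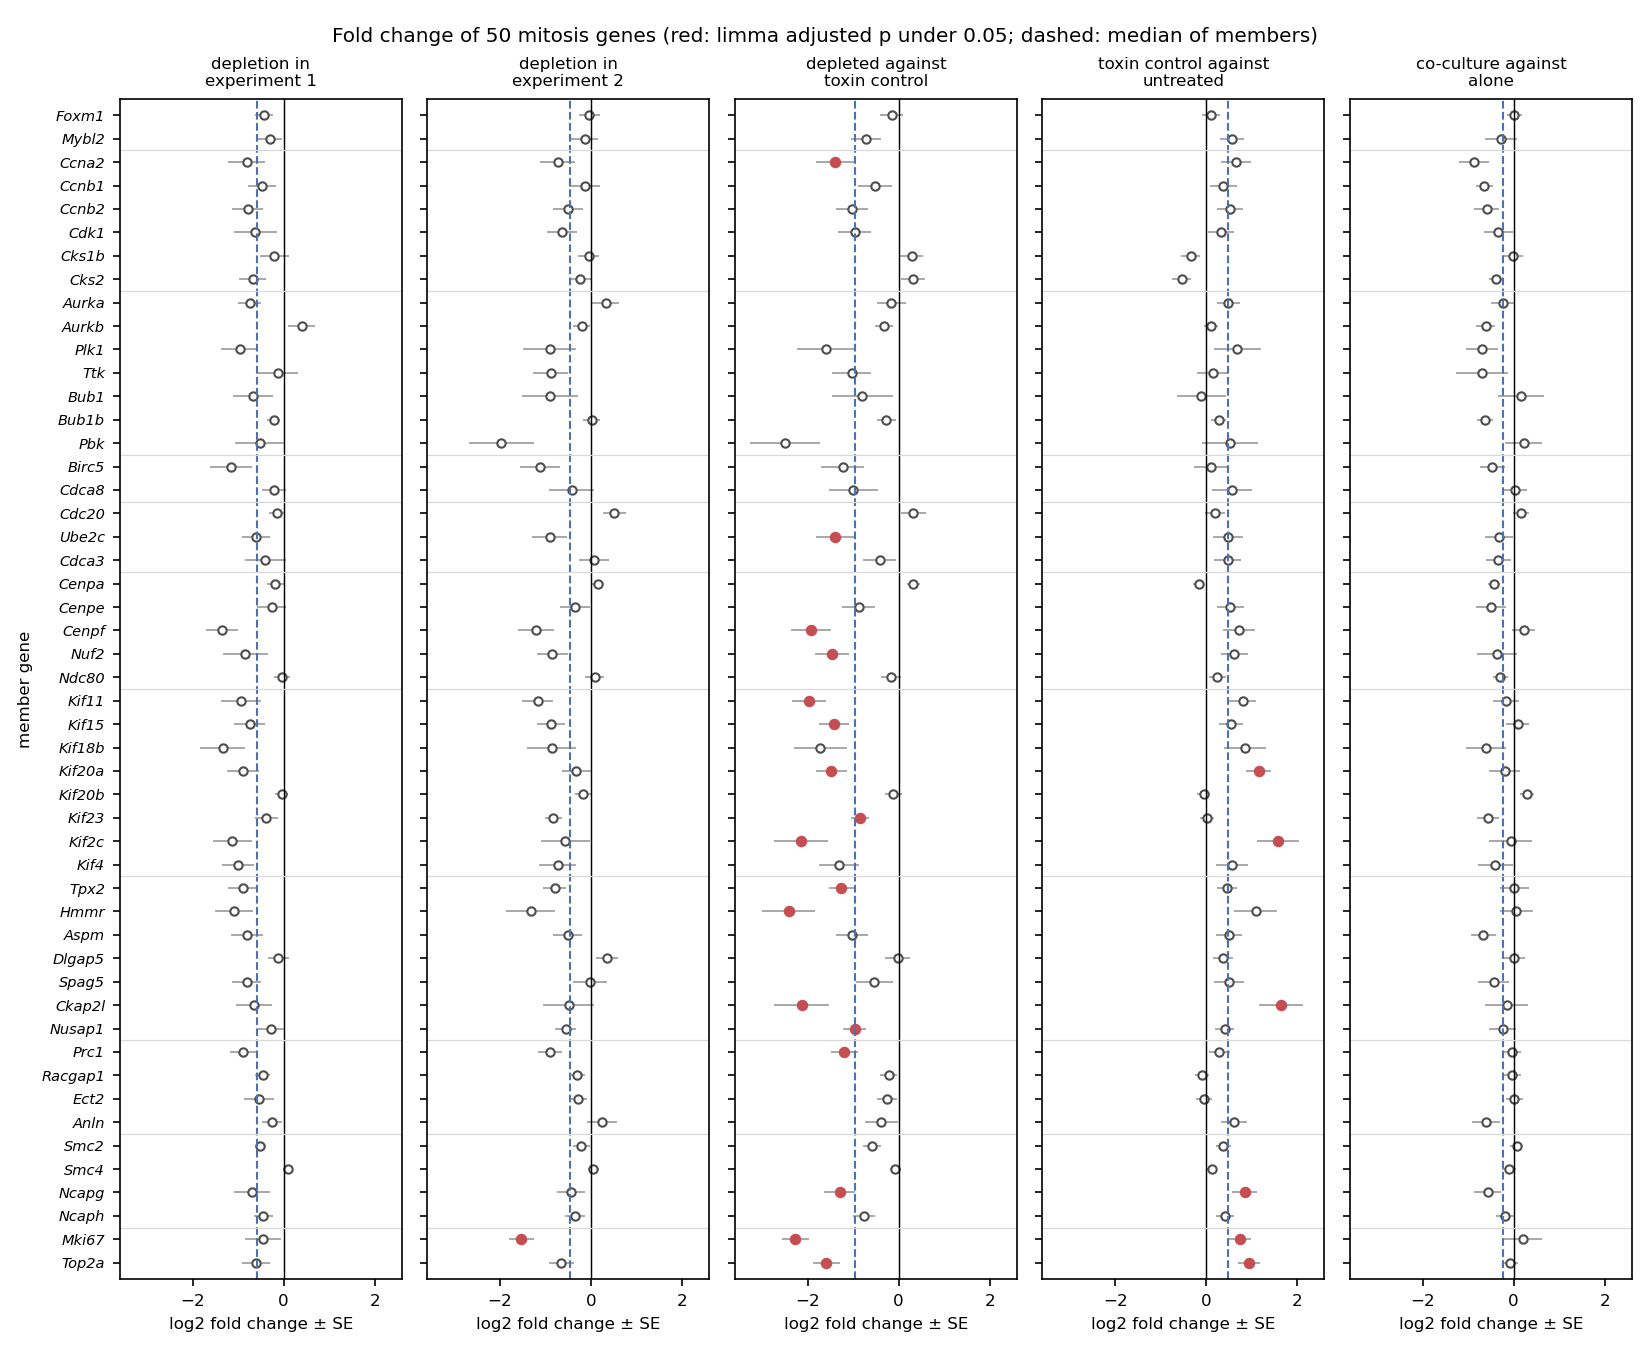
Log2 fold change with its SE for each of the 50 genes (rows, by role) in the 5 comparisons (panels). Red points had a limma adjusted p under 0.05, and the dashed line is the median of the 50. The medians lie at -0.57, -0.47, -0.96, 0.48 and -0.24 from left to right, with 0, 1, 17, 6 and 0 red points.

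In experiment 1 depleted and untreated Tcrd-GDL mice were compared in other libraries. These groups also differ in toxin, so toxin and depletion cannot be told apart. The log2 fold change was below 0 in 48 of the 50 genes (52.0% of all genes), with a median of -0.57 beside -0.0109 over all genes. None passed at an adjusted p under 0.05 with limma (0 of 50, against 0% of all 11701 genes). On the recovered reads edgeR and DESeq2 called none of the 50 either, while DESeq2 called 27 genes of the whole table. At an unadjusted p under 0.05, 17 of 50 were lower (34.0%) and 0 higher, against 4.67% and 4.16% of all genes. Also in 17 of 50 (34.0%) all 3 depleted libraries lay below all 3 untreated ones, against 7.88% of all genes, and in 0 they lay above (7.29% of all genes).

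The smallest p belonged to Smc2, Cenpf and Prc1. Smc2 was at 281, 256 and 287 in the untreated libraries and at 194, 174 and 211 in the depleted ones (-0.51 ± 0.13, limma adjusted p = 0.415). Cenpf was at 45.3, 40.0 and 48.3 (untreated) and 27.5, 10.5 and 16.0 (depleted) (-1.35 ± 0.35, adjusted p = 0.415), and Prc1 was at 95.4, 70.2 and 89.0 (untreated) and 68.8, 30.5 and 43.0 (depleted) (-0.89 ± 0.29, adjusted p = 0.508). In all of these the 3 depleted libraries lay below the untreated ones, replicate 1 included. Prc1 was the only gene of the 50 whose depleted libraries lay below all untreated ones in both experiments.

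In 30 of the 50 genes depleted replicate 1 stood within the untreated libraries or above them, while replicates 2 and 3 did so in 7 and 5. Mki67 was at 131, 150.2 and 125 in the untreated libraries and at 193, 46.3 and 105 in depleted replicates 1 to 3. Top2a was at 427, 348 and 395 (untreated) and 456, 165 and 218 (depleted), and Kif11 at 99.0, 117 and 147 (untreated) and 128, 28.4 and 64.0 (depleted). In these 3 genes the depleted group thus held the highest or second value as well as the lowest. Cdk1 was at 34.6, 33.9 and 46.6 (untreated) and 58.1, 13.7 and 17.7 (depleted), with depleted replicate 1 the highest of all 6. Aurkb was at 89.5, 66.6 and 59.3 (untreated) and 148, 64.2 and 85.1 (depleted), and its log2 fold change was above 0 (0.39, adjusted p = 0.703), as was that of Smc4 (0.10, adjusted p = 0.818).

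Ccnb1 was at 38.8, 40.0 and 51.7 in the untreated and 38.2, 20.0 and 37.9 in the depleted libraries, with all depleted libraries below the untreated ones and replicate 2 the lowest. Plk1 was at 24.5, 24.2 and 37.3 (untreated) and 24.5, 11.6 and 9.27 (depleted), and replicates 2 and 3 were below all untreated libraries. Hmmr was at 32.2, 30.3 and 41.5 (untreated) and 29.1, 8.42 and 15.2 (depleted), with all depleted libraries below the untreated ones. By role, kinesins had the lowest median (-0.92), with all 8 below 0, and spindle proteins followed (-0.81), with all 7 below 0.

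Without depleted replicate 1, the library with the high share of Gm23935 and of Ddx3y, 24 of the 50 genes fell at an adjusted p under 0.05, as did 615 of all genes, while 477 rose. They included Top2a (-1.03, adjusted p = 0.000125), Kif11 (-1.46, adjusted p = 0.00224), Cenpf (-1.70, adjusted p = 0.00286), Smc2 (-0.52, adjusted p = 0.0196) and Mki67 (-0.94, adjusted p = 0.0231). Without depleted replicate 2 none passed, and Mki67 stood at 0.08. T cell genes, mostly Cd2, summed to 2521 to 2710 in the untreated and 1953 to 2473 in the depleted libraries and myeloid genes to 233 to 548 and 147 to 281. With all libraries, the 8 T cell genes tested all had log2 fold changes below 0 (52.0% of all genes), with a median of -0.49. Elane and Prtn3 were at 0 in both groups. Germinal centre genes summed to 883 to 897 and 656 to 836, with Mef2b at 0 in the depleted group. Plasmablast genes summed to 3486 to 4575 and 3396 to 4103, with none at 0. Among them Sdc1 was at 378 to 449 in the untreated and 162 to 215 in the depleted libraries, without overlap (-1.04 ± 0.14, limma adjusted p = 0.181). Their part in the result was not tested. Across the 2 depletion experiments, which share no library, 40 of 50 genes had log2 fold changes below 0 in both, 1 (Smc4) was above 0 in both and 9 differed in sign.

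In culture, cells kept with γδ T cells were compared with cells kept alone. The log2 fold change was below 0 in 37 of 50 genes (50.8% of all genes), with a median of -0.24 beside -0.0050 over all genes. None passed at an adjusted p under 0.05 (0 of 50), while 1.06% of all 12386 genes fell and 1.1% rose, and edgeR and DESeq2 on the recovered reads called none of the 50 either. At an unadjusted p under 0.05, 8 of 50 were lower (16.0%) and 0 higher, against 7.5% and 5.12% of all genes. In 7 of 50 (14.0%) all 3 co-cultured libraries lay below all 3 others, against 10.4% of all genes, and in 0 they lay above (7.94%). Those below were Ccnb1, Aurkb, Bub1b, Cenpa, Ndc80, Kif23 and Aspm. With any single library left out, replicate 3 of either group included, 0 of the 50 passed.

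The smallest p belonged to Bub1b, a checkpoint kinase, at 138, 123 and 148 alone and 99.2, 90.3 and 75.4 with γδ T cells (-0.63 ± 0.17, limma adjusted p = 0.0934). Ccnb1 was at 115, 107 and 97.1 (alone) and 77.8, 73.3 and 54.4 (with γδ T cells) (-0.64 ± 0.19, adjusted p = 0.127), and Cenpa at 449, 496 and 416 (alone) and 310.1, 391 and 311 (with γδ T cells) (-0.43 ± 0.14, adjusted p = 0.16). Aurkb was at 172, 109 and 122 (alone) and 98.2, 86.6 and 73.7 (with γδ T cells) (-0.62 ± 0.20, adjusted p = 0.172). These 4 were lower in each co-cultured library than in any library kept alone.

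Other genes did not follow. Mki67 was at 64.5, 105 and 90.9 alone and 52.5, 79.2 and 229.8 with γδ T cells, so that replicate 3 of the co-culture was the highest of all 6 and the other co-cultured libraries were within or below the range of cells kept alone. Top2a was at 157, 226 and 148 (alone) and 187, 169 and 141 (with γδ T cells), Kif11 at 52.3, 94.6 and 44.8 (alone) and 61.2, 57.7 and 43.9 (with γδ T cells), and Cdk1 at 40.2, 43.5 and 63.5 (alone) and 36.0, 59.2 and 25.4 (with γδ T cells). All 3 overlapped between groups. Plk1 was at 22.4, 44.4 and 29.9 (alone) and 13.6, 21.5 and 22.8 (with γδ T cells), Cenpf at 41.1, 39.3 and 33.6 (alone) and 33.1, 45.9 and 57.0 (with γδ T cells), and Hmmr at 17.8, 18.4 and 14.9 (alone) and 14.6, 25.2 and 14.9 (with γδ T cells). These overlapped as well, and the library with the highest Mki67 had the lowest Top2a, Kif11 and Cdk1 of the 6. Among markers, T cell genes, mostly Cd2, summed to 2310 to 2450 alone and 1824 to 2175 with γδ T cells, with Cd3e at 41.9 to 51.4 and 44.4 to 57.4. Cd5 fell (-0.95) and Lck rose (0.71) among the 12 tested, each 8.33%, against 1.06% and 1.10% of all genes. Sdc1, a plasmablast marker, fell (-1.78, adjusted p = 0.000107) and Bcl6, a germinal centre factor, rose (0.83, adjusted p = 0.00856), and their part in the mitotic genes was not tested.

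Rag1 marks B cells that are rearranging or editing their receptor, and its level was set beside the mean level of the 50 genes. In experiment 1 Rag1 was at 38.8, 32.7 and 53.4 normalized counts in the untreated and 42.8, 13.7 and 8.42 in the depleted libraries. The order of libraries was nearly the same for both measures (Pearson r 0.88, Spearman rho 0.94, n = 6, with log2 Rag1). Depleted replicates 2 and 3 were low in both, and depleted replicate 1 was in the untreated range in both. Without these 2 lowest libraries r was 0.90 (n = 4), but the 4 left spanned mean levels of only 5.96 to 6.08, and with the median in place of the mean r was 0.26.

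In experiment 2 Rag1 was at 209.8, 299, 94.8, 171 and 169 in the untreated, 36.2 and 52.5 in the depleted and 611, 726 and 581 in the toxin control libraries. The 3 groups did not overlap, so no pooled correlation is given. Rag1 fell in the depleted group against both others (-1.99 and -3.84, limma adjusted p = 0.013 and 9.38e-06) and rose in the toxin control against untreated (1.84, adjusted p = 0.00187). The order of the groups was therefore the same for Rag1 and for the mean level of the 50 genes, depleted below untreated below toxin control. Within groups no such order was seen, since the deviations from the group means had r -0.029 (n = 10). Untreated replicate 5 had the highest Rag1 of its group and the lowest mean level, and untreated replicate 8 had the highest mean level and the second lowest Rag1.

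In culture Rag1 was at 102, 101 and 77.2 alone and 68.0, 85.9 and 49.1 with γδ T cells. The relation to the mean level had r 0.87 and rho 0.94 (n = 6), r 0.99 without cells alone replicate 1 and co-culture replicate 3 (n = 4), and r 0.76 for deviations from the group means. In experiment 1 the same deviations had r 0.79 (n = 6). The libraries of a table share its scaling, and these correlations are descriptions without a test.

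**Figure D4:**
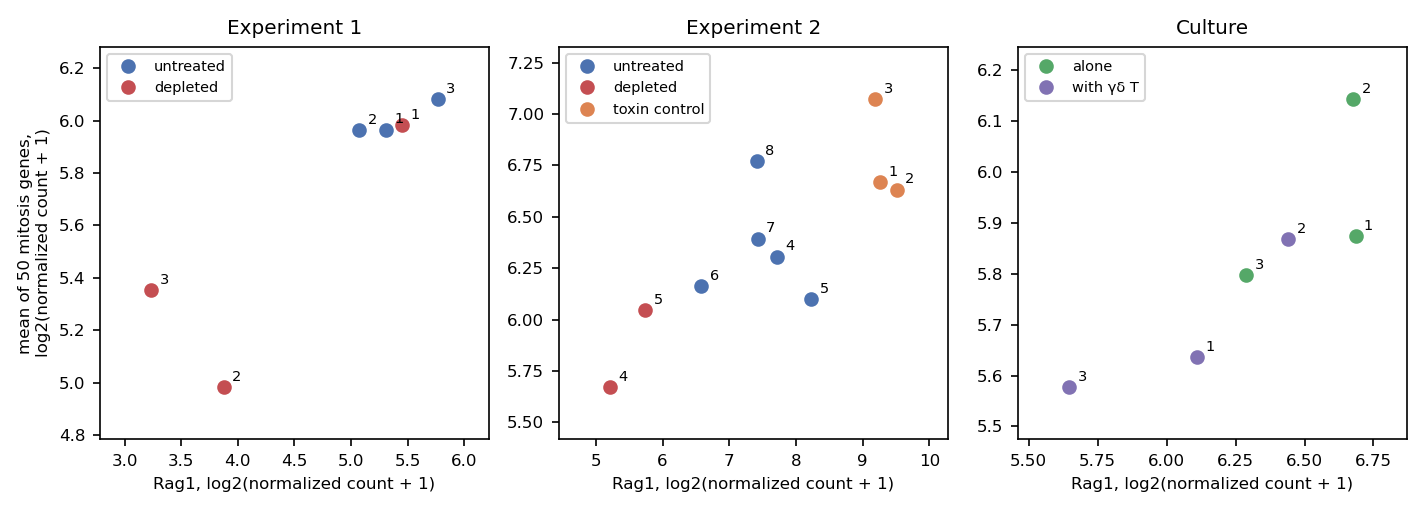
Mean of log2(normalized count + 1) over the 50 genes against log2(normalized count + 1) of Rag1 in each library (points, numbered by replicate, coloured by group). In experiment 2 the 3 groups sit in separate ranges of Rag1, with means of 44.3, 189 and 639 normalized counts in the depleted, untreated and toxin control groups.

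The 50 genes were also compared with each other, as deviations from the group means over 22 libraries in 7 groups. The correlation of each gene with the mean of the other 49 had a median of 0.64, was above 0.5 in 34 and above 0 in 46. Libraries share scaling and depth, so these values describe how alike the genes were. They were not computed for other genes, so whether they are particular to the 50 is unknown. It was highest for Ccna2 (0.91), Kif11 (0.91), Top2a (0.90), Prc1 (0.90) and Birc5 (0.90). It was below 0 for Cenpa (-0.59), Smc4 (-0.44), Spag5 (-0.29) and Ndc80 (-0.16), and near 0 for Kif20b (0.02) and Cdc20 (0.05). Mki67, the gene with the lowest adjusted p in experiment 2, was at 0.51. With Rag1 the median was 0.29, and 40 of 50 genes were above 0, led by Kif18b (0.61), Top2a (0.59) and Ect2 (0.57).

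The genes that did not move with the rest were not all of low level. Smc4 was at 1585, 1472, 1590.2, 1831 and 1519 in the untreated, 1898 and 1439 in the depleted and 1679.8, 1769 and 1777 in the toxin control libraries of experiment 2, and its groups overlapped. Cenpa, at 649, 684, 589.9, 622 and 499 in the untreated libraries, was likewise among the highest per kilobase. Kif20b, a kinesin of cytokinesis, was at 359.9, 316, 432, 474 and 449 (untreated), 391 and 324 (depleted) and 337, 468 and 364 (toxin control). The groups of Kif20b overlapped as well. Reads of Ccnb1, Ccnb2, Cks1b and Kif4 may be shared with the copies Ccnb1-ps, Ccnb2-ps, Cks1brt and Kif4-ps.

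**Figure D5:**
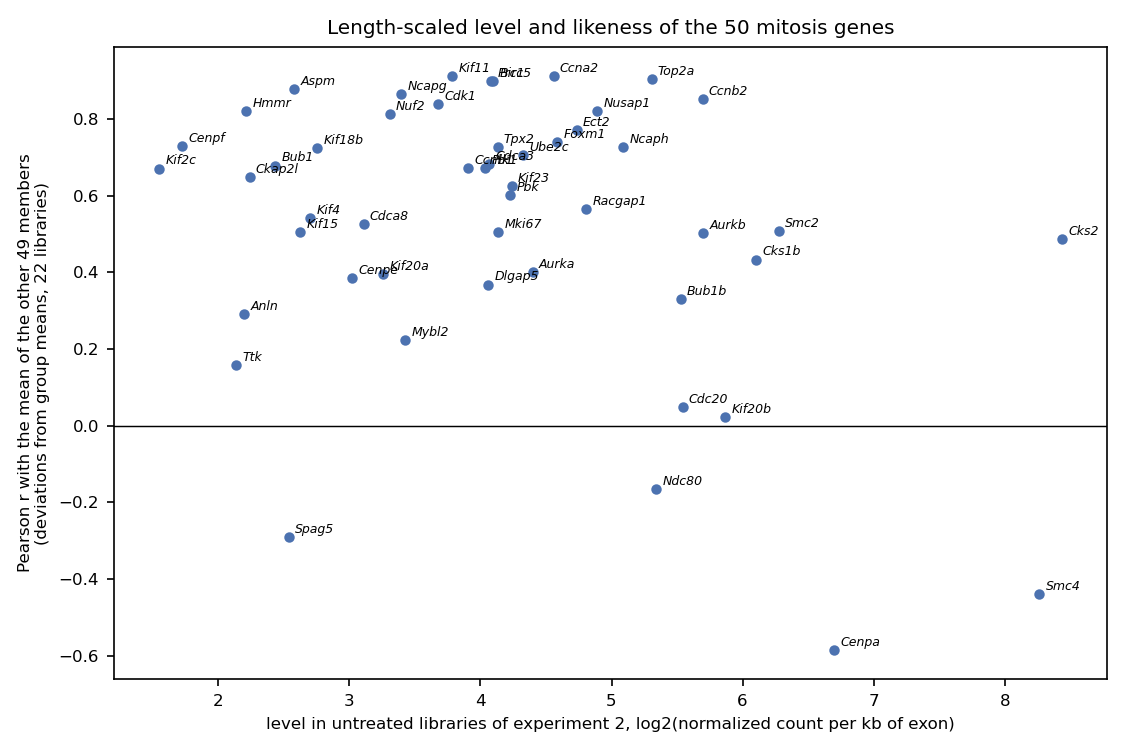
Each of the 50 genes by its level in the untreated libraries of experiment 2 (x axis, log2 of the normalized count per kilobase of exon) and its Pearson r with the mean of the other 49 (y axis, deviations from group means, 22 libraries). Cenpa and Smc4 combine a high level with values below 0 (-0.59 and -0.44), and Ccna2, Kif11 and Top2a lie at the top.

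Other genes of the cell cycle were taken from lists. These lists and the 50 genes were chosen with earlier results of these data known, so differences between their medians are descriptions without a test. Of 68 other mitosis genes, 65 were tested in experiment 1 and in experiment 2 and 64 in culture. Their medians were -0.23 and -0.10 in the depletion comparisons of experiments 1 and 2, -0.29 against the toxin control, 0.14 for the toxin control against untreated and -0.10 in culture, each nearer to 0 than the median of the 50. Against the toxin control 8 of 65 (12.3%, against 4.49% of all genes) fell and 0 rose, among them the kinesin Kif14 (-2.65, adjusted p = 0.0115), the nuclear lamin Lmnb1 (-0.74, adjusted p = 0.0128), the centrosomal kinase Nek2 (-1.48, adjusted p = 0.0142) and the cohesin acetyltransferase Esco2 (-2.08, adjusted p = 0.0229). In the toxin control against untreated 6 of 65 rose (9.23%, near the 7.32% of all genes) and 0 fell (8.34% of all genes), among them Lmnb1 (0.59), Mad1l1 (0.42), Ncapg2 (0.62) and Ckap5 (0.35). In both depletion comparisons with untreated mice 0 passed. In culture the phosphatase Cdc25b, which activates Cdk1, fell (-0.75, limma adjusted p = 0.00647). It was the only 1 of 64 to pass (1.56%, near the 1.06% of all genes).

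Genes of S phase, which copy the DNA before mitosis, had medians nearer to 0 than the 50 genes, at -0.21, -0.12, -0.16, 0.06 and 0.05 in the same order of comparisons. Against the toxin control 5 of 48 fell (10.4%, against 4.49% of all genes) and 0 rose, among them Uhrf1 (-1.42, adjusted p = 0.00582), Lig1 (-0.83), Cdc6 (-1.53) and E2f2 (-0.63). For the toxin control against untreated Mcm3 rose (0.30) and Dut and Pcna fell (-0.38 and -0.31). These were 2.08% and 4.17% of the 48, below the 7.32% and 8.34% of all genes. In culture Pole2 rose (0.90) and E2f2 fell (-0.71), each 2.13% of the 47 tested, against 1.10% and 1.06% of all genes. In both depletion comparisons with untreated mice 0 of 48 passed.

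Among brakes on the cell cycle, 5 of 20 fell (25%) and 2 rose (10%) in the toxin control against untreated, where 8.34% of all genes fell and 7.32% rose. Btg2, Ccng2 and Rbbp4 fell (-0.27, -0.33 and -0.36) and Foxo1, which is also a driver of Rag1 in B cells, rose (0.40, adjusted p = 0.0113). Foxo1 fell in depleted libraries against the toxin control (-0.40, limma adjusted p = 0.04). It was the only 1 of 20 to pass there (5.0%, near the 4.49% of all genes). Of the genes of G1 entry, cyclin D2 (Ccnd2) fell in depleted libraries against the toxin control (-0.88, adjusted p = 0.0219) and rose in the toxin control against untreated (0.55, adjusted p = 0.0408). Cdk2 rose in the first of these comparisons (0.52), and in the second Cdk6 rose (0.42) and Cdk4 fell (-0.41). Neither list had a gene that passed in the depletion comparisons with untreated mice or in culture.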

How the data were processed

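RNA of the sorted cells was prepared with RNeasy Plus Micro and sequenced from SMART-Seq Stranded libraries of total RNA, per the labels' protocols. The tools were bcl2fastq and STAR 2.5.2b with the genome mm10, per the submitters' processing notes. No source used here gives the counter, its use of strand, the annotation or the scaling method. The authors deposited normalized counts, a signal scaled per library in 3 separate tables. Every value was a whole multiple of what 1 read was worth (100% within a tolerance of 0.01), so reads per library were recovered. Limma 3.58.1 (R 4.3.3) was run on log2(value + 1) for genes with a table mean of at least 10, with Benjamini-Hochberg adjustment over all genes tested and a threshold of 0.05. Fold changes on this scale understate those of low genes. The 3 groups of experiment 2 were fitted together. The script was tested on simulated data. Alternatives were edgeR 4.0.16 and DESeq2 1.42.0 on the recovered reads, another pseudocount (5), filter (none, or a mean of 50) and scaling (quantile), a replicate block and each library left out. All 26 pairs of libraries within a group differed by more than counting noise (lowest chi-square per degree of freedom 4.83). The members and gene lists were chosen with earlier results of these data known. All 50 members may be named, with values in every library for Mki67, Top2a, Cdk1, Ccnb1, Plk1, Aurkb, Cenpf, Hmmr and Kif11 and for up to 8 genes that passed (or the 3 with the smallest p). Listed genes are named where they passed, up to 4 per list, and values of other genes in the text were chosen after they were seen. Exon lengths, gene overlaps and positions are from GENCODE M21 (GRCm38), and Trdc and Vpreb2 were not analysed here.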

Additional observations from a re-analysis of the deposited data

Results flagged for a closer look

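In 24 groups of values large enough to be tested for a library far from the others, 2 had one, and chance gives about 1 in 20. Both were in untreated replicate 8 of experiment 2, with Cdk1 at 98.2 normalized counts (the other 4 untreated libraries at 46.9 to 60.5) and Tpx2 at 102 (72.1 to 80.2). That library also had the highest mean level of the 50 genes in its group (6.77). Cd3e, a T cell gene, was at 167 there and at 29.2 to 57.2 in the other 4, and its part in the mitotic genes was not tested.

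Cdc20 differed in direction between the 2 depletion experiments. All depleted libraries were below all untreated ones in experiment 1 (log2 fold change -0.15) and above all of them in experiment 2 (0.51). Neither fold change passed, and the difference between the experiments was not tested. Cdc20 overlaps Elovl1 on the other strand.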

How the results depend on the processing

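Counts of members that passed rested on single libraries. With each library left out in turn, they ranged from 0 to 24 in experiment 1, from 0 to 7 for depleted against untreated in experiment 2, from 1 to 21 for depleted against the toxin control, and from 0 to 12 for the toxin control against untreated. Where a group was left with 1 library, it was assumed to vary like the others, and such fits are not in these ranges. Depletion in experiment 2 gave 2 members with DESeq2, where 62 of all genes fell. It gave 0 members when only the 2 groups compared were fitted, where 3 of all genes fell. That fit left 11 members against the toxin control, where 201 of all genes fell. With no filter, the toxin control against untreated gave 2 members that rose, beside 699 of all genes. Same-numbered libraries had correlated deviations in part of the culture only (r 0.20, -0.037 and 0.23 for replicates 1 to 3), where replicate 2 did not correlate best with its own number, and not in experiment 1 (-0.022, -0.037 and 0.046) or experiment 2 (-0.070 and -0.105), and the labels do not say that a number marks a shared source. On the recovered reads edgeR called 0 genes of the whole table for depletion in experiment 1, 51 in experiment 2, 1189 against the toxin control, 2101 for the toxin control against untreated and 237 in culture. In experiment 2 depletion 15 of those were lower and 36 higher, against 23 and 17 with limma. DESeq2 called 27 genes of the whole table in experiment 1 and 138 in experiment 2, against 0 and 40 with limma. With the replicate block, 0 members passed in experiment 1, 1 in experiment 2 and 1 in culture (Ccna2). That fit held only the 2 groups compared. In experiment 2 it called 153 of all genes, against 5 for the same 2 groups without the block and 40 in the main fit. Only the numbers of the depleted libraries occur in both groups there. In culture calls over all genes went from 267 to 448.

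Some directions turned. With each library left out in turn, log2 fold changes ranged from -0.94 to 0.081 for Mki67 in experiment 1, where it turned without depleted replicate 2, and from -0.26 to 0.039 for Ccnb1 in depleted against untreated mice of experiment 2, where it turned without untreated replicate 8. Aurkb in the toxin control against untreated ranged from -0.0117, without toxin control replicate 3, to 0.21. In culture, Hmmr ranged from -0.19 to 0.18, turning without alone replicate 3 or co-culture replicate 2, Kif11 from -0.38 to 0.15, turning without alone replicate 2, Mki67 from -0.40, without co-culture replicate 3, to 0.66, and Top2a from -0.20 to 0.11, turning without alone replicate 2 or co-culture replicate 3. The relation to Rag1 within the groups of experiment 2 had r -0.18 with the median in place of the mean. In culture it had r 0.989 without the libraries farthest in Rag1 and 0.759 for deviations. The cause of these changes was not tested.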
